A study of Mus musculus with 24 samples.

Results

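Liver RNA levels of 10 genes of NAD synthesis and consumption (Nmrk1, Nampt, Naprt, Nadsyn1, Nmnat1, Nmnat3, Qprt, Cd38, Nnmt and Sirt1) were examined in 24 mouse livers. Nmrk1 was the starting point. The study named it among the genes shared between the GCV response of p16-3MR females and a microRNA treatment in other mice. Its values in the female GCV contrast are therefore given as a description without a test. So are those in every contrast that rests on the same GCV-treated females. The other 9 genes have roles in the same pathway, and the set was drawn up with earlier results of these data known. All 10 were among the 21755 genes of the p16-3MR table, and 7 of the 10 could be read among the 12643 rows of the wild-type table. The wild-type table has lost 9 lower-case letters from its gene labels, and Nmnat1, Nmnat3 and Nnmt share their shortened labels with other genes.

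Each genotype had 3 females given ganciclovir (GCV), 3 females given vehicle (VEH, pH11 water), 3 males given GCV and 3 males given VEH. The p16-3MR mice carry an artificial chromosome in which the 3MR cassette, with the herpes simplex virus thymidine kinase HSV-tk, sits at p16Ink4a, so that GCV is toxic to cells in which p16 is switched on. They were treated for 5 consecutive days every month, with the first round given at 16 to 18 months of age. VEH-treated p16-3MR mice carry the transgene too. Wild-type mice began treatment at 6 months of age, their livers were taken after 3 months, and they carry no transgene. The labels give a GCV dose of 150 mg/kg, injected intraperitoneally, while the methods of the study state a different dose. The p16-3MR libraries are labelled batch 1 and the wild-type libraries batch 2, so genotype, age, length of treatment and batch cannot be told apart, and each genotype was fitted on its own.

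NAD carries electrons in metabolism and is also consumed as a substrate, so cells must keep remaking it. The salvage route starts from nicotinamide (Nampt) or from the nicotinamide riboside that Nmrk1 phosphorylates. The Preiss-Handler route starts from nicotinic acid (Naprt), the de novo route reaches nicotinic acid mononucleotide through quinolinic acid (Qprt), and both end with Nadsyn1. The adenylyl transferases Nmnat1 in the nucleus and Nmnat3 in mitochondria serve all of these routes. Cd38 cleaves NAD, Sirt1 uses it to deacetylate proteins, and Nnmt methylates nicotinamide and so takes it out of salvage. The liver is known for using all of these routes and for releasing nicotinamide to other tissues.

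Each p16-3MR library held between 5005760 and 7160172 estimated counts, and each wild-type library between 3084517 and 5667904. Levels are CPM, the share of a library's counts times 1000000, on library sizes scaled by TMM, a factor that lines up the bulk of the genes between libraries. All 6 hepatocyte markers listed were present in the p16-3MR livers and 2 of the 6 could be read in the wild-type table, at a summed 12240 to 15610 CPM. Of the p16-3MR libraries, 3 stood apart. GCV-treated female 33 had 64.0% of its counts from mitochondrially encoded genes, against 12.3 to 22.4% in the other 11 livers, and a TMM factor of 0.259. GCV-treated male 32 and VEH-treated male 24 had the lowest summed hepatocyte markers, at 25080 and 39930 CPM against 76330 to 155700 CPM elsewhere, and the highest summed Kupffer cell markers, at 2828 and 1683 CPM against 107.5 to 932 CPM. The fitted biological coefficient of variation was 55.8% in the p16-3MR livers and 16.6% in the wild-type livers. In bulk tissue, fewer cells of a type and less RNA per cell cannot be told apart.

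Promoter sequence is shown for 3 members. Nmrk1 was taken because its level set the GCV-treated p16-3MR females apart. Nampt was the member with the lowest p-value in a wild-type treatment contrast. Sirt1 was the member with the narrowest range of TMM-scaled levels in p16-3MR livers, which did not hold on the other scalings. RefSeq gave a window of 300 bases (250 before the gene start and 50 after it, build GRCm38.p6) for 8 of the 10 members. The stretches printed are the parts before the start that no GENCODE exon covers, 5′ to 3′ on the strand of the gene, with GC boxes (GGGCGG) and E-boxes (CACGTG) in capitals on either strand. They are 126 bases at chr19:18631824-18631949 (plus strand) for Nmrk1, 250 bases at chr12:32820085-32820334 (plus strand) for Nampt and 235 bases at chr10:63339051-63339285 (minus strand) for Sirt1.
Nmrk1: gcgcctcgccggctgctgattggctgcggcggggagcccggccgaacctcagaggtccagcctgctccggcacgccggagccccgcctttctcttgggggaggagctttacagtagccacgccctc
Nampt: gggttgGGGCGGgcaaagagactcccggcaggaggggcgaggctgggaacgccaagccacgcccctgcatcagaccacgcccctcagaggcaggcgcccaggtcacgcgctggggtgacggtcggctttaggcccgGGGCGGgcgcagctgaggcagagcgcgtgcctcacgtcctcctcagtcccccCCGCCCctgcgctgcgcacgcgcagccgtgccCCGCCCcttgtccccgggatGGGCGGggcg
Sirt1: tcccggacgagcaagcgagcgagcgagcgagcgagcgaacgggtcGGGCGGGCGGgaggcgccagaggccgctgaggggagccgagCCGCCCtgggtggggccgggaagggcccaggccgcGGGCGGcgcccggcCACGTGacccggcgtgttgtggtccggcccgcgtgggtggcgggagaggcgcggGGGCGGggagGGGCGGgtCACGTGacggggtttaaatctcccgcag

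The Nmrk1 window held none of the 4 motifs searched, and its far end overlaps the first exon of Ostf1 on the other strand. Both the Nampt and the Sirt1 windows start inside longer GENCODE gene models. The Nampt window held 5 GC boxes and no E-box. The Sirt1 window held 7 GC boxes and 2 E-boxes, the only E-boxes in the windows of the 8 members. Among all 32851 RefSeq promoters of the same length, 35.7% held a GC box and 7.15% an E-box. The STAT5 element TTCNNNGAA was found only in the Qprt window (8.30% of all promoters), and TATAAA in no member's window (13.6% of all promoters). The E-box is the element bound by CLOCK and BMAL1, among other factors, and a match of letters is not a binding site. GC content of the windows ran from 49.0% (Nmnat3) to 79.0% (Sirt1).

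Nmrk1, nicotinamide riboside kinase 1 (chr19:18631950-18652428, plus strand, protein-coding), was highest in GCV-treated p16-3MR females. Its level was 35.1, 41.7 and 27.7 CPM in GCV-treated females 31, 33 and 35 and 11.7, 7.09 and 17.2 CPM in VEH-treated females 27, 28 and 29. In males it was 7.75, 8.49 and 11.5 CPM in GCV-treated mice 30, 32 and 34 and 8.98, 13.6 and 16.1 CPM in VEH-treated mice 24, 25 and 26. Every GCV-treated female lay above every other p16-3MR liver, and the other 3 groups overlapped.

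GCV-treated females averaged 34.8 ± 7.02 CPM and VEH-treated females 12 ± 5.08 CPM (SD, n = 3 each), which is 1.53 ± 0.38 (SE) on the log2 scale. VEH-treated males averaged 12.9 ± 3.61 CPM and GCV-treated males 9.25 ± 2.00 CPM (SD, n = 3 each). By mean, GCV-treated females came first and GCV-treated males last, with VEH-treated males slightly above the females given VEH, and neighbours among the 3 lower groups did not differ beyond their spread. In GCV-treated mice, females were higher than males by 1.91 ± 0.39 (SE) on the log2 scale. The GCV response of females exceeded that of males by 2.00 ± 0.54 (SE). These 3 differences share the same GCV-treated females, whose values led to the choice of the gene, and are given as a description.

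The scaling of female 33 bears on these values. Only 54 counts of Nmrk1 were read in that library. On unscaled library totals, its level was 10.8 CPM, below 2 of the 3 VEH-treated females (7.70 to 19.7 CPM), and the 2 groups overlapped. On totals without mitochondrially encoded genes, the lowest GCV-treated female, again 33, lay above the highest VEH-treated female (25.1 CPM), with no overlap. The log2 fold change was 0.78 on unscaled totals, where the median of all genes shifted to -0.58, and 1.32 without female 33.

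The comparison of treatments in males used none of the livers from which Nmrk1 was chosen. GCV-treated and VEH-treated p16-3MR males differed by -0.48 ± 0.38 (SE) on the log2 scale, and edgeR's adjusted p was 1.0. It was -0.67 without VEH-treated male 24 and -0.28 without VEH-treated male 26. This difference did not pass the test. VEH-treated females, which the choice did use, and VEH-treated males differed by -0.10 ± 0.38 (SE), given without a test.

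In wild-type livers, Nmrk1 showed no such separation. Females had 15.1, 11.2 and 18.1 CPM with GCV and 13.6, 19.0 and 19.3 CPM with VEH. Males had 18.9, 17.2 and 18.9 CPM with GCV and 25.02, 11.2 and 8.71 CPM with VEH. All 4 groups overlapped with at least 1 other, and VEH-treated male 1 was the highest of the 12 livers. The log2 fold change with GCV was -0.20 ± 0.29 (SE) in females and 0.32 ± 0.29 (SE) in males, with edgeR adjusted p-values of 1.0 and 0.914. The difference between these responses was -0.52 ± 0.41 (SE; edgeR adjusted p = 0.982). It was -1.08 without VEH-treated male 1 and -0.23 without VEH-treated male 3. The responses of the 2 genotypes were not tested against each other, because batch and age differ with genotype.

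**Figure D1:**
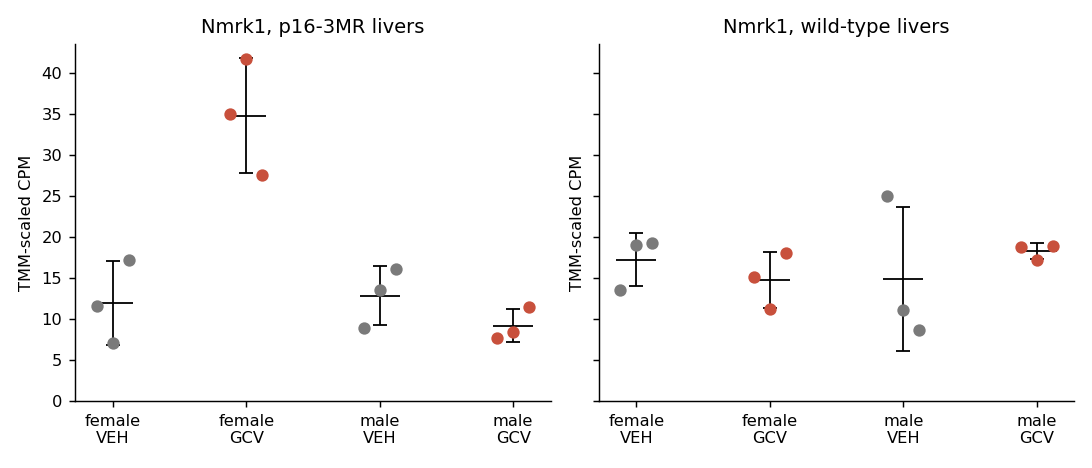
Nmrk1 level (TMM-scaled CPM, linear axis from 0) in each of the 12 p16-3MR and 12 wild-type livers, as points by sex and treatment, with the group mean (horizontal bar) and SD (n = 3 per group). The 3 GCV-treated p16-3MR females sit between 27.7 and 41.7 CPM, and the other 9 p16-3MR livers between 7.09 and 17.2 CPM.

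The genes whose levels followed Nmrk1 most closely over the 12 p16-3MR livers were ranked among 12395 other genes with a mean of at least 10 counts, as a description. The highest Spearman coefficients were those of Zpr1 (0.92), Wdr74 (0.92), Pomgnt1 (0.90), Zfp606 (0.90) and Cebpz (0.90), the last tied with Fdx1l and Commd2 and taken first by name. The lowest were those of Rab6b (-0.92) and of Scai, Thada, Fam172a and Exoc3l4 (-0.90 each). The livers share the 4 groups and the scaling, which enter every coefficient. Among the other 9 members, Naprt (0.66) and Nmnat1 (0.55) had the highest coefficients with Nmrk1 and Sirt1 (-0.44) the lowest. The named genes depended on the measure: by Pearson's r, 1 of the 5 highest and 1 of the 5 lowest were shared.

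No member was called by edgeR at an adjusted p under 0.05 in any of the 10 comparisons. For GCV minus VEH, the share of all genes called was 0% in p16-3MR females, 0% in p16-3MR males, 0.00791% in wild-type females (1 gene) and 0% in wild-type males. At an unadjusted p under 0.05 the counts over all genes were 1603, 416, 577 and 640, DESeq2 called 85, 5, 17 and 1 genes, and limma-voom with quality weights called 7, 145, 3 and 0. DESeq2 called none of the other 9 members in these 4 contrasts. In p16-3MR females, 8 of the 10 members were higher with GCV and 2 were lower, and their median log2 fold change was 0.37 beside 0.00 for all genes. Without female 33, 5 were higher and 5 lower (median 0.09), and with any of the other 5 females left out 7 to 9 were higher. With limma-voom's quality weights the members' median was 0.00 (all genes 0.10), and on unscaled totals it was -0.42 (all genes -0.58). In p16-3MR males, 5 members were higher and 5 lower (median 0.00, all genes 0.04). In wild-type females 3 of 7 were higher (median -0.08), and in wild-type males 5 of 7 (median 0.01).

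The groups of p16-3MR females did not overlap for 2 of the 10 members, Nmrk1 and Naprt, both higher with GCV. Over all 12409 genes with a mean of at least 10 counts, the share higher in this way was 8.82%. The count fell to 1 (Nmrk1) on totals without mitochondrially encoded genes and to 0 on unscaled totals, where the median of all genes was -0.58. Nmrk1 was chosen from this contrast, so nothing is read from that count. In p16-3MR males no member was separated in this way (6.98% of genes in either direction). In wild-type females 1 of 7 members, Nampt, was lower without overlap (5.68% of genes), and in wild-type males none was (9.67% in either direction).

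**Figure D2:**
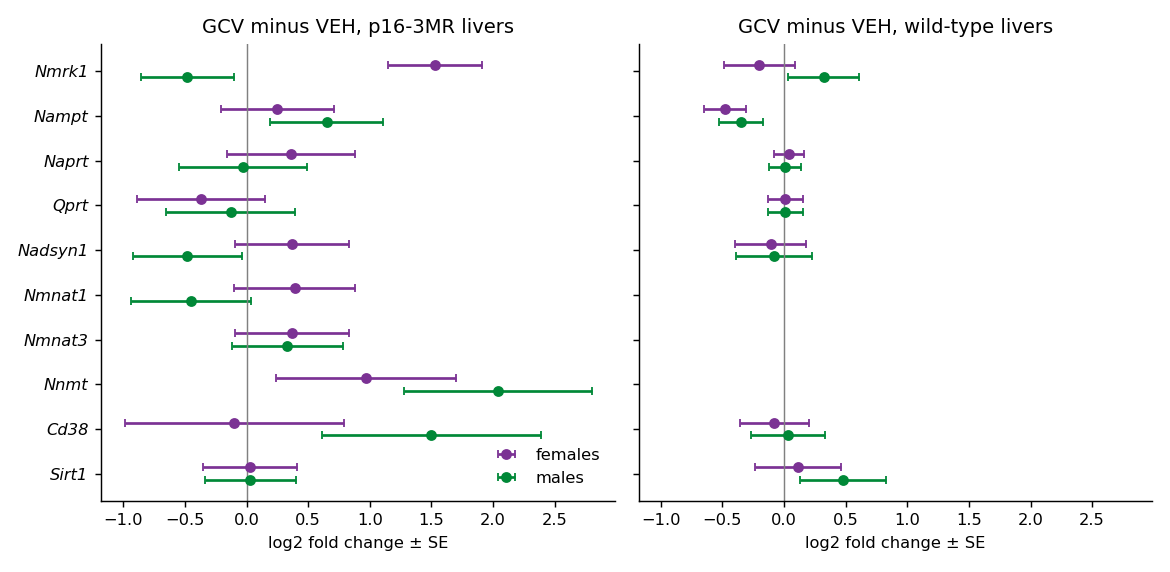
Log2 fold change of GCV against VEH for each member (edgeR fit, bars show the standard error) in p16-3MR livers (left) and wild-type livers (right), females in purple and males in green. Nmnat1, Nmnat3 and Nnmt have no point on the right because their shortened labels are shared with other genes. Nmrk1 in p16-3MR females stands at 1.53, and wild-type Nampt lies below 0 in both sexes.

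Nampt, the rate-limiting enzyme of nicotinamide salvage (chr12:32819545-32853349, plus strand), was lower with GCV in wild-type livers by amounts that did not pass the adjusted threshold. Wild-type females had 32.99, 30.5 and 31.2 CPM with GCV and 54.5, 36.9 and 39.97 CPM with VEH. All GCV-treated females lay below all VEH-treated females, and VEH-treated female 4 stood highest. This difference was -0.48 ± 0.17 (SE) on the log2 scale, with an edgeR p of 0.00997 before adjustment and 1.0 after it. Without VEH-treated female 4 it was -0.28.

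Wild-type males had 21.7, 26.7 and 27.2 CPM of Nampt with GCV and 26.6, 32.1 and 37.7 CPM with VEH. The 2 groups overlapped at their edges. On the log2 scale they differed by -0.35 ± 0.18 (SE; edgeR adjusted p = 0.889), and the responses of the sexes differed by -0.12 ± 0.24 (SE; edgeR adjusted p = 1.00). Without VEH-treated male 3 the difference in males was -0.22.

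In p16-3MR livers the Nampt differences had a wider spread. Females had 47.6, 82.7 and 125.3 CPM with GCV and 51.5, 74.4 and 88.8 CPM with VEH. Males had 88.2, 141.9 and 45.7 CPM with GCV and 72.3, 53.8 and 49.4 CPM with VEH. The groups overlapped in both sexes, and male 32 was the highest of the 12. The log2 fold changes were 0.25 ± 0.46 (SE) in females and 0.65 ± 0.46 (SE) in males, with edgeR adjusted p-values of 0.912 and 1.0, and the male value was 0.16 without male 32. The female value was -0.14 without female 35. On unscaled totals the female means were 61.96 CPM with GCV and 78.56 CPM with VEH, beside a median of -0.58 for all genes in the log2 fold change. A lincRNA, Gdap10, overlaps Nampt on the same strand, and reads of the 2 genes could be exchanged in the estimates.

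Naprt, nicotinic acid phosphoribosyltransferase (chr15:75890956-75894481, minus strand), was 37.8, 27.03 and 27.3 CPM in GCV-treated and 26.5, 20.7 and 24.8 CPM in VEH-treated p16-3MR females. The groups did not overlap, but the gap between them was 27.03 against 26.5 CPM. They overlapped on unscaled totals (6.992 to 32.12 against 22.47 to 28.27 CPM) and on totals without mitochondrially encoded genes (19.44 to 38.16 against 25.9 to 36.11 CPM). On the log2 scale the difference was 0.36 ± 0.52 (SE; edgeR adjusted p = 0.860). In p16-3MR males the level ran from 4.59 CPM, in GCV-treated male 32, to 36.3 CPM. In wild-type livers it ran from 73.1 to 97.3 CPM over all 12 livers, and the log2 fold change was 0.04 ± 0.12 (SE) in females and 0.01 ± 0.13 (SE) in males. Naprt overlaps Eef1d on the same strand, so its counts are uncertain to that extent.

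Qprt, quinolinate phosphoribosyltransferase of the de novo route (chr7:127107114-127122226, minus strand), was among the more abundant members in the wild-type livers. Wild-type females had 73.9 to 96.3 CPM with GCV and 70.5 to 96.2 CPM with VEH, and males had 88.2 to 110.0 CPM and 84.2 to 115.0 CPM. The response to GCV was 0.01 ± 0.14 (SE) on the log2 scale in females and 0.01 ± 0.14 in males. In p16-3MR livers it ran from 18.5 CPM in female 33 and 19.1 CPM in male 32 to 89.1 CPM in male 34, and the response was -0.37 ± 0.52 (SE) in females and -0.13 ± 0.52 in males. The female value was -0.11 without female 33 and -0.82 without female 35. The male value was 0.25 without male 32 and -0.62 without male 34. The lowest edgeR adjusted p of Qprt over the comparisons was 0.400.

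Nadsyn1, NAD synthetase (chr7:143795584-143822849, minus strand), and the adenylyl transferases were low in every liver in which they could be read. Nadsyn1 was 5.21 to 17.8 CPM in p16-3MR livers and 4.64 to 10.6 CPM in wild-type livers. Nmnat1 (chr4:149467572-149485202, minus strand) was 3.81 to 16.4 CPM and Nmnat3 (chr9:98287435-98420438, plus strand) 3.13 to 13.1 CPM in p16-3MR livers. The highest value of both Nadsyn1 and Nmnat3 was that of female 33, from 23 and 17 counts. The log2 fold changes with GCV in p16-3MR females were 0.37 ± 0.46 (SE) for Nadsyn1, 0.39 ± 0.49 for Nmnat1 and 0.37 ± 0.46 for Nmnat3. In males they were -0.48 ± 0.44, -0.45 ± 0.49 and 0.33 ± 0.45. Without female 33 the female values were -0.23 for Nadsyn1 and -0.18 for Nmnat3. None passed edgeR's adjusted threshold. Nmnat1 overlaps Tmem274 on the other strand and Nmnat3 overlaps the processed pseudogene Gm28530 on the same strand, so both are uncertain where reads are shared.

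Nnmt, nicotinamide N-methyltransferase (chr9:48591877-48605153, minus strand), had its lowest group mean in VEH-treated p16-3MR males. These males had 10.97, 11.8 and 12.3 CPM, while the GCV-treated males had 47.6, 5.66 and 91.2 CPM. The 2 male groups overlapped through GCV-treated male 32 alone. That liver, with the lowest summed hepatocyte markers, also held the lowest Naprt and Nmnat1 of the 12, and the part of its composition in these values was not tested. Their log2 fold change was 2.04 ± 0.76 (SE), with an edgeR p of 0.0184 before adjustment and 1.0 after it, and was 1.18 without GCV-treated male 34. The 6 cholangiocyte markers also separated the male groups, at a summed 86.2 to 142.7 CPM with GCV and 50.3 to 64.1 CPM with VEH, and their part was not tested.

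Females had 191.2, 46.3 and 57.0 CPM of Nnmt with GCV and 47.6, 69.9 and 33.1 CPM with VEH. Their log2 fold change was 0.97 ± 0.73 (SE; edgeR adjusted p = 0.735) and fell to 0.05 without female 31. Among VEH-treated mice, every female lay above every male, a log2 difference of 2.10 ± 0.76 (SE), with an edgeR p of 0.0158 before adjustment and 1.0 after it. Nnmt was the only member of 10 higher without overlap in females of the VEH groups, against 5% of all genes. When only these 6 livers were fitted, the same difference was 2.12 with an edgeR adjusted p of 0.0265, which ranged up to 1.0 over the other alternatives. The spread among these 6 livers was smaller than among all 12, where GCV-treated Nnmt ran from 5.66 to 191.2 CPM.

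**Figure D3:**
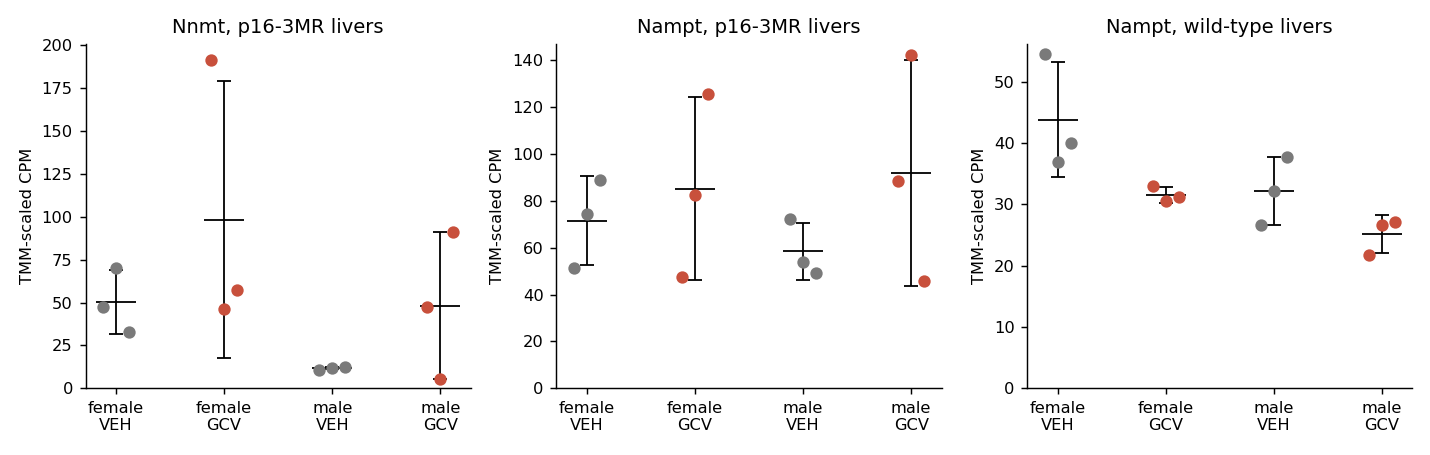
Nnmt in p16-3MR livers, Nampt in p16-3MR livers and Nampt in wild-type livers (TMM-scaled CPM, linear axes from 0 with a scale of their own), as points by sex and treatment with the group mean and SD (n = 3 per group). VEH-treated p16-3MR males hold Nnmt between 10.97 and 12.3 CPM, and GCV-treated wild-type females hold Nampt between 30.5 and 32.99 CPM.

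Cd38, the main NAD-cleaving ectoenzyme of immune cells (chr5:43868553-43912375, plus strand), had the widest range of the members in p16-3MR livers together with Nnmt. It was 22.4, 49.4 and 7.71 CPM in GCV-treated females, 17.3, 27.8 and 37.4 CPM in VEH-treated females, 41.3, 196.5 and 19.6 CPM in GCV-treated males and 68.3, 11.2 and 11.2 CPM in VEH-treated males. The 2 highest values were those of males 32 and 24. The groups overlapped in both sexes.

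The log2 fold change of Cd38 was 1.5 ± 0.89 (SE) in p16-3MR males and -0.10 ± 0.89 in females, with edgeR adjusted p-values of 1.0 and 1.0. Without male 32 the value in males was -0.06, and without male 24 it was 2.97. In females it ran from -0.94, without female 33, to 0.36, without female 35. The summed level of 6 Kupffer cell markers was 2828 CPM in male 32 and 1683 CPM in male 24, and 107.5 CPM in female 35, where Cd38 was lowest. In female 33, which had the highest TMM-scaled Cd38 of the females (49.4 CPM, from 64 counts), the sum was only 214.0 CPM. On unscaled totals its Cd38 was 12.79 CPM, and on totals without mitochondrially encoded genes 35.56 CPM. VEH-treated female 29 was higher on both, at 42.61 and 54.45 CPM. Over the groups the Kupffer cell sum ran from 107.5 to 322.1 CPM in GCV-treated females and 291.1 to 932 CPM in VEH-treated females. In males it ran from 213.4 to 2828 CPM with GCV and from 150.4 to 1683 CPM with VEH. Its part in the Cd38 values was not tested. In wild-type livers, where 3 of the 6 markers could be read at a summed 84.5 to 154.2 CPM, Cd38 was 5.13 to 14.2 CPM, and its response to GCV was -0.08 ± 0.28 (SE) in females and 0.03 ± 0.30 in males. Cd38 overlaps Gm16014 on the same strand and Gm16015 on the other strand.

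**Figure D4:**
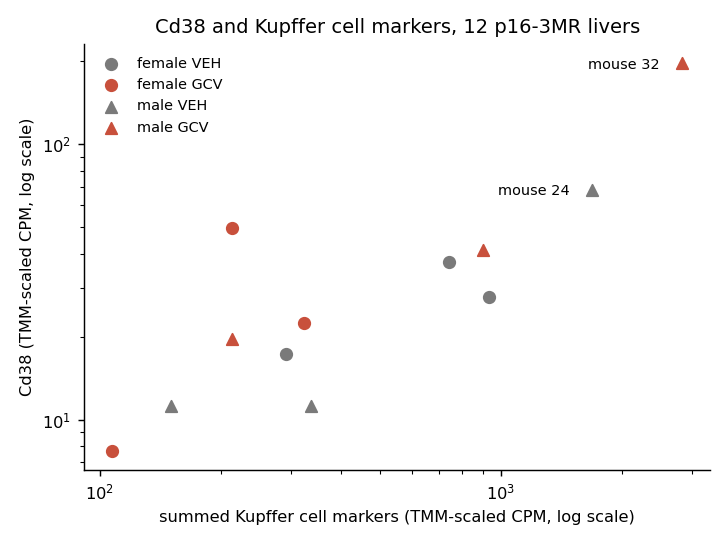
Cd38 level against the summed level of 6 Kupffer cell markers (both TMM-scaled CPM on log axes) in the 12 p16-3MR livers, circles for females, triangles for males, grey for VEH and red for GCV. Males 32 and 24 hold the highest values on both axes, at 196.5 and 68.3 CPM of Cd38.

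Sirt1, an NAD-dependent deacetylase (chr10:63319005-63381704, minus strand), varied least in p16-3MR livers on TMM-scaled levels. Its level was 4.46 to 8.10 CPM over the 12 p16-3MR livers and 3.46 to 8.85 CPM over the 12 wild-type livers. On unscaled totals Sirt1 ran from 1.598 to 12.47 CPM in p16-3MR livers, and Nmnat3 from 3.26 to 7.569 CPM. On totals without mitochondrially encoded genes they ran from 4.444 to 14.26 and from 4.144 to 9.445 CPM, in the same order. In p16-3MR livers the response of Sirt1 to GCV was 0.03 ± 0.38 (SE) on the log2 scale in females and 0.03 ± 0.37 in males. In wild-type males it was 0.48 ± 0.35 (SE; edgeR adjusted p = 0.889), and 0.22 without GCV-treated male 3. Counts per liver were low (8 to 65 in p16-3MR, 13 to 29 in wild-type), which limits the precision. An antisense gene, Gm16145, overlaps Sirt1.

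Sex differences were compared within each treatment. Over all genes, females and males differed at an edgeR adjusted p under 0.05 for 0.12% of genes in VEH-treated and 0.0965% in GCV-treated p16-3MR mice, and for 3.82% and 3.24% in wild-type mice. No member was called in these 4 comparisons. In GCV-treated p16-3MR mice Cd38 differed by -1.74 ± 0.91 (SE) between females and males (edgeR adjusted p = 0.6), and by -0.34 without male 32. The summed hepatocyte markers separated these groups without overlap, at 96890 to 155700 CPM in females and 25080 to 80870 CPM in males. Their part in any difference between these groups was not tested. In wild-type mice Nampt was higher in females by 0.44 ± 0.17 (SE) with VEH and by 0.32 ± 0.18 (SE) with GCV, with edgeR adjusted p-values of 0.181 and 0.478. The value with VEH was 0.25 without VEH-treated female 4. On unscaled totals the 2 differences were 0.78 and 0.64, beside medians of 0.36 and 0.31 for all genes. With GCV the sexes did not overlap for Nampt (30.5 to 32.99 against 21.7 to 27.2 CPM), the only member of 7 higher in this way, against 11.4% of genes. Between these groups the summed hepatocyte markers (12240 to 13290 against 13850 to 14640 CPM) did not overlap either. Nor did those of stellate cells and fibroblasts (291.4 to 309.5 against 215.7 to 262.2 CPM). T and NK cell markers (1.36 to 3.74 against 0.314 to 0.615 CPM) and adipocyte markers (0.575 to 1.13 against 2.136 to 7.385 CPM) also separated. Their part was not tested. Qprt differed by -0.27 ± 0.14 (SE) with VEH and by -0.26 ± 0.15 (SE) with GCV, with edgeR adjusted p-values of 0.400 and 0.476. Both Qprt differences changed sign on unscaled totals, where the median of all genes shifted to 0.36 with VEH.

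The surrounding pathway was read from a list of 41 further genes, of which 40 were in the p16-3MR table and 24 could be read in the wild-type table. In the comparison of GCV with VEH, none passed edgeR's adjusted threshold in either sex of either genotype (the shares of all genes are those given for the members). At an unadjusted p under 0.05, 6 of 40 differed in p16-3MR females (7.37% of all genes), and none in p16-3MR males (1.91%), wild-type females (4.56%) or wild-type males (5.06%). In p16-3MR females 13 of 40 were higher with GCV and 27 lower. Their median log2 fold change was -0.29 beside 0.00 for all genes. The median of the list was not taken without GCV-treated female 33, so how far the median and the counts rest on that liver is not known. Without female 33 single genes of the list moved both towards and away from no change, as given below. The median stayed below that of all genes, by 0.20 to 0.35, under the other tools and scalings run on all livers. All of these settings keep female 33, so they cannot show whether the median stays lower without that liver. Beside the list, the summed level of the 6 stellate cell and fibroblast markers was 268.8 to 349.2 CPM in GCV-treated and 374.0 to 446.2 CPM in VEH-treated p16-3MR females, without overlap. The 6 sinusoidal endothelium markers summed to 86.8 to 144.4 CPM and 119.4 to 205.8 CPM, and the 6 Kupffer cell markers to 107.5 to 322.1 CPM and 291.1 to 932 CPM. The part of any of these in the list's values was not tested. In p16-3MR males 15 were higher and 25 lower (median -0.10), in wild-type females 11 of 24 were higher (median -0.02) and in wild-type males 17 of 24 (median 0.13).

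Among the 36 list genes with a mean of at least 10 counts, 8 were lower without overlap in GCV-treated p16-3MR females and 2 were higher, beside 9.48% and 8.82% of all genes. Of the 8, 5 belong to the group that cleaves NAD, which makes up 13 of the 36 genes. Of the 14 genes of that group in the table, 10 were lower and 4 higher, namely Parp16 (0.42 ± 0.49, SE), Parp10 (0.24 ± 0.47), Parp2 (0.23 ± 0.41) and Parp3 (0.18 ± 0.34). On TMM-scaled levels female 33 was the highest of the 6 females for Parp16, Parp10 and Parp2, at 36.3, 34.8 and 18.5 CPM. These came from 47, 45 and 24 counts and a TMM factor of 0.259, and the ranks rest on that scaling. The other GCV-treated females had 10.2 and 12.4 CPM of Parp16, 17.5 and 7.88 CPM of Parp10 and 6.94 and 7.04 CPM of Parp2. VEH-treated females had 11.4 to 17.0, 14.5 to 17.7 and 7.52 to 10.05 CPM, in the same order. Parp14, an ADP-ribosyltransferase known for its role in interferon and cytokine signalling, was 45.7, 23.9 and 27.3 CPM with GCV and 51.7, 85.2 and 65.1 CPM with VEH (log2 fold change -1.05 ± 0.42, SE; edgeR adjusted p = 0.667). Parp9, its partner, was 30.1, 10.04 and 34.4 CPM against 41.0, 52.5 and 49.5 CPM (-0.91 ± 0.41, SE). Parp12 differed by -0.77, Tnks2 by -0.53 and Tnks by -0.44. Female 33 was lowest of the 6 females for Parp14, Parp9 and Parp12, and not for Tnks or Tnks2. Without female 33 the differences were -0.95 for Parp14, -0.63 for Parp9 and -0.49 for Parp12, while those of Tnks and Tnks2 were -0.65 and -0.62.

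On the de novo route, Kynu and Ido2 were lower without overlap, by -0.74 ± 0.70 (SE) and -0.91 ± 0.87 (SE), and 6 of the 8 genes of the route were lower in all. Kynu cleaves kynurenines, and was 68.6, 14.7 and 80.0 CPM with GCV and 97.7, 95.2 and 83.7 CPM with VEH. Female 33 held the lowest value of both genes, and without it the differences were -0.37 for Kynu and -0.51 for Ido2. Aox1, which oxidises N-methylnicotinamide, the product of Nnmt, differed by -0.64 ± 0.54 (SE), and by -0.82 without female 33. The 2 genes that were higher without overlap were Sirt5, a mitochondrial deacylase (1.17 ± 0.49, SE), and Nadk, the cytosolic NAD kinase (0.51 ± 0.37, SE). Sirt5 was 11.4, 30.9 and 10.7 CPM against 7.10, 7.67 and 8.05 CPM, and its difference was 0.47 without female 33 and 0.18 on unscaled totals (median of all genes -0.58). The groups overlapped for both genes on the other scales: Nadk was 26.97 to 122.4 against 76.47 to 107.8 CPM on unscaled totals, and Sirt5 7.991 to 10.63 against 7.402 to 9.183 CPM. On totals without mitochondrially encoded genes Nadk was 75.0 to 157.7 against 96.37 to 133.3 CPM, and Sirt5 11.49 to 22.22 against 9.153 to 11.73 CPM. The lowest edgeR adjusted p of the list in p16-3MR females was 0.667.

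**Figure D5:**
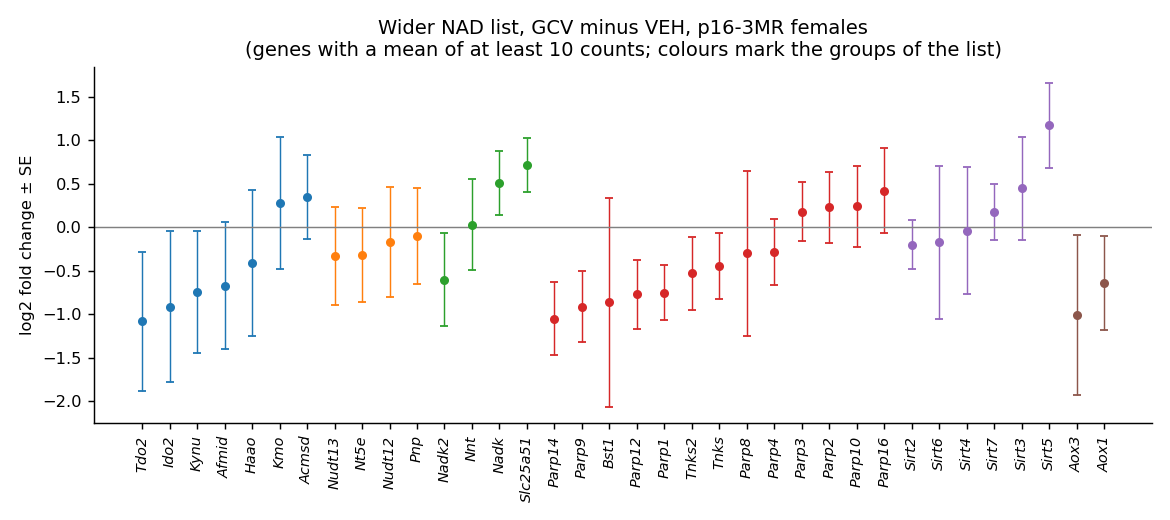
Log2 fold change of GCV against VEH in p16-3MR females (edgeR fit, bars show the standard error) for the 36 further NAD genes with a mean of at least 10 counts, grouped by colour: de novo route, other precursor steps, phosphorylation and transport, cleavage, deacylases, and breakdown of N-methylnicotinamide. Sirt5 stands highest at 1.17, and Tdo2 and Parp14 lie at -1.08 and -1.05.

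In p16-3MR males, Sirt2 was the only list gene whose treatment groups did not overlap, higher with GCV by 0.29 ± 0.28 (SE), which is 1 of 36 beside 6.98% of all genes in either direction. Among wild-type males, Parp16 (0.57 ± 0.29, SE) and Sirt4 (0.85 ± 0.43, SE) were higher and Parp9 (-0.31 ± 0.16, SE) lower without overlap, each with an edgeR adjusted p of 0.889. These are 3 of 21 list genes beside 9.67% of all genes in either direction. Parp16 was 11.95, 12.1 and 27.5 CPM with GCV against 11.2, 11.8 and 11.2 CPM with VEH. Its difference thus lay mostly in GCV-treated male 3. In wild-type females no list gene was separated, while 5.68% of all genes were lower without overlap.

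Between the sexes, 1 of the 24 list genes of the wild-type table passed the test with VEH, beside 3.82% of all genes, and no other list gene passed it in the 4 comparisons of the sexes. Kynu was lower in VEH-treated wild-type females, at 41.8, 48.2 and 53.1 CPM, than in VEH-treated wild-type males, at 74.2, 64.7 and 66.2 CPM. The log2 difference was -0.52 ± 0.13 (SE; edgeR adjusted p = 0.0254). The call was kept in 7 of 14 alternatives, with adjusted p-values from 0.00813 to 0.456. Without VEH-treated female 4 the adjusted p was 0.127, and on unscaled totals the difference was -0.18, beside a median of 0.36 for all genes. Beside these differences, the summed markers of several cell types also separated the VEH-treated wild-type sexes without overlap, females first. The 2 readable hepatocyte markers summed to 13270 to 13670 against 14830 to 15610 CPM and the 4 of stellate cells and fibroblasts to 276.5 to 340.0 against 235.0 to 268.7 CPM. The 3 of sinusoidal endothelium summed to 79.8 to 104.4 against 66.5 to 71.3 CPM. Those of T and NK cells (1.991 to 4.232 against 0.532 to 0.774 CPM) were also higher in females. So were those of B and plasma cells (3.611 to 8.627 against 2.322 to 3.06 CPM). Adipocyte markers were lower in females (0.664 to 0.705 against 1.065 to 20.8 CPM). The part of any of these markers in the sex differences was not tested. With GCV the difference was -0.25 and did not pass the test.

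Nt5e, the ectoenzyme CD73 that acts on extracellular nucleotides, had the largest sex difference in VEH-treated p16-3MR livers among the list genes with a mean of at least 10 counts. VEH-treated females had 89.7, 71.6 and 52.6 CPM and VEH-treated males 15.2, 3.04 and 8.44 CPM. GCV-treated females had 91.4, 29.4 and 48.8 CPM and GCV-treated males 9.72, 18.7 and 8.07 CPM. The sexes did not overlap under either treatment, as for 5% of all genes higher in females with VEH and 4.42% with GCV. On unscaled totals the GCV-treated sexes overlapped (females 7.591 to 77.69, males 7.513 to 33.79 CPM). They also did on totals without mitochondrially encoded genes (females 21.11 to 92.28, males 9.415 to 38.52 CPM). The VEH-treated sexes stayed apart on both. The log2 differences were 2.99 ± 0.58 (SE) and 2.22 ± 0.57 (SE), with edgeR adjusted p-values of 0.104 and 0.492. DESeq2 called the first at an adjusted p of 0.000352, and 3 of 14 alternatives called it. The second was called in 3 of 15 alternatives (lowest adjusted p = 0.0149, with limma-voom) and was 1.34 on unscaled totals (median of all genes -0.87). Beside these differences, the summed hepatocyte markers separated the GCV-treated sexes, at 96890 to 155700 CPM in females and 25080 to 80870 CPM in males. The adipocyte markers were at 0 CPM in VEH-treated females and at 1.4 to 8.44 CPM in VEH-treated males. Their part in the Nt5e differences was not tested. Nt5e in the wild-type table could not be read under a label of its own.

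The other list genes whose sexes did not overlap were Sirt2 (0.20), Parp9 (0.40) and Pnp (0.42), higher in VEH-treated p16-3MR females, and Parp3 (-0.23), lower in them (5.47% of all genes). In VEH-treated wild-type mice Parp1 (0.26), Parp2 (0.50), Parp10 (0.77) and Sirt5 (0.45) were higher in females (11% of all genes; 11.3% were lower). In GCV-treated wild-type mice Parp14 (0.49) was higher and Sirt7 (-0.17) lower in females (11.4% and 11.5% of all genes). The values are log2 differences, and none passed edgeR's adjusted threshold (lowest adjusted p = 0.151, for Parp10). The summed markers that separated the GCV-treated wild-type sexes are those given beside Nampt, and their part was not tested.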

How the data were processed

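Smart-3SEQ libraries, which read the 3′ ends of transcripts, were made from 24 mouse livers. The submitters' processing notes name FastQC 0.11.9, Trim Galore 0.6.10, Salmon 1.10.3 and mm10. The authors summed Salmon's transcript estimates to genes and deposited estimated counts as whole numbers without scaling. The strand setting is not given in the sources used here. All columns were used. Of 12643 wild-type labels, 10496 matched 1 symbol after removal of the 9 letters that the labels lack, 2067 matched several and 80 none; ambiguous labels were not named. Of 21755 p16-3MR rows, 57 had no symbol in GENCODE M21. These rows stayed in library sizes and tests.

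Counts were tested with edgeR 4.0.16 in R 4.3.3 (TMM, quasi-likelihood, a mean for each of the 4 groups of a table, Benjamini-Hochberg adjustment over all its genes, calls at 0.05). P-values measure the spread between mice. Levels below 3 counts (0.419 to 0.599 CPM and 0.529 to 0.973 CPM) count as a floor for counting error only. Standard errors are the fold change over the root of F. Log2 CPM used a prior count of 2. DESeq2 1.42.0 (the study used DESeq2 in an earlier version) and limma 3.58.1 were among the alternatives. The others were DESeq2 size factors, filterByExpr, only the 6 livers compared, removal of mitochondrially encoded genes, each liver left out and a replicate block. Unscaled totals, totals without mitochondrially encoded genes, and DESeq2 without female 33 were chosen after seeing the data. The scripts were tested on simulated data. Members and lists were chosen with earlier results of these data known, and the search for GC boxes was added later. Named genes were all members, list genes called or without overlap at a mean of at least 10 counts, and the 5 genes most and least like Nmrk1; Ostf1, overlapping genes, Tdo2, Fdx1l, Commd2, 4 Parp genes and wild-type Kynu with GCV were named beyond that rule. Tables were drawn with Python 3.11.15, pandas 2.3.3 and matplotlib 3.10.9.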

Additional observations from a re-analysis of the deposited data

How the results depend on the processing

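The count of members called, 0 in every comparison, became 1 in p16-3MR females with DESeq2 (Nmrk1; 0.641% of all genes called), and 1 between GCV-treated p16-3MR females and males with DESeq2 (0.988%), with limma-voom (0.354%) and with DESeq2 without female 33 (0.856%; Nmrk1 each time). These Nmrk1 calls rest on the livers from which the gene was chosen and support nothing. It became 1 between VEH-treated p16-3MR females and males when only the 6 livers compared were fitted (Nnmt; 0.271%). Between wild-type females and males it became 1 on unscaled totals with either treatment (Nampt; 14.2% of all genes with VEH, 10.4% with GCV), and 2 with VEH (Nampt and Naprt; 15.2%) and 1 with GCV (Nampt; 10.6%) on totals without mitochondrially encoded genes. With 1 liver left out in turn the count stayed from 0 to 0 in all 10 comparisons. The direction of log2 fold changes was followed only for the 26 of members that were at least 1.2 standard errors from 0. Distance from 0 and the reuse of largely the same livers make a turn unlikely, and the Nmrk1 contrasts behind its choice are included. Smaller differences were left out of this count, and some of them turned with 1 liver left out, as given above. For the 26, the alternatives kept the direction in 395 of 403 values. Those that turned were Cd38 in p16-3MR males (-0.06 to 2.97 with 1 liver left out), Nadsyn1 in the difference of p16-3MR responses (-0.07 on unscaled totals), Nmnat3 between GCV-treated p16-3MR females and males (-0.46 on unscaled totals, -0.02 on totals without mitochondrially encoded genes) and Qprt between wild-type females and males (0.08 and 0.09 with VEH, 0.06 and 0.07 with GCV, in the same order). Those scalings moved the median of all genes to -0.66 for the Nadsyn1 comparison, to -0.87 and -0.60 for that of Nmnat3, and to between 0.31 and 0.37 for those of Qprt; the Cd38 value rests on male 32, without which it turned. The log2 fold change of Nmrk1 in p16-3MR females ran from 0.78 to 1.56 over the other settings and from 1.19 to 1.84 with 1 liver left out. Wild-type replicate numbers did not pair the females, with same-number correlations from -0.0569 to 0.00178 and different-number ones from -0.045 to 0.0847. In males the same-number correlations ran from -0.0663 to 0.283 (mean 0.138). Different-number ones ran from -0.349 to 0.17 (mean -0.0696), which does not settle whether the numbers pair the males. With the replicate block the count of members called was 0, the Nampt response was -0.46 in females and -0.35 in males, and Sirt1 in males was 0.46. Of the genes most like Nmrk1, 3 of the 5 highest and 2 of the 5 lowest remained without female 33, with tied ranks broken by gene name. Depth limits Sirt1, Nmnat1, Nmnat3 and Nadsyn1, with 8, 14, 17 and 18 counts in their lowest libraries.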
